A study of Mus musculus with 12 samples.

Results

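The laminin chains and the integrin subunits were followed in nuclear RNA of adult mouse heart muscle cells that did or did not express YAP5SA, an active mutant of the Hippo pathway co-activator YAP with serines exchanged for alanine. Members were all rows of the gene count table whose symbol was that of a numbered laminin alpha, beta or gamma chain, began with Itga, or was Itgb with a single digit, without the integrin-binding proteins whose symbols hold bp. The rule found 38 of the 46983 symbols of the table, of which 11 were laminin chains, 19 were integrin alpha rows and 8 were integrin beta rows. One alpha row, Itgam_2, had no match in the annotation and was taken from its name alone as a second entry for Itgam, with 1 and 1 counts in controls and 2 and 0 counts with YAP5SA, so the rows were counted as 37 genes. Of the 38 rows, 36 passed the filter on low counts and were tested, and Lama1 and Itgam_2 did not pass it.

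Laminins are large cross-shaped proteins of the basement membrane, the thin sheet of matrix that surrounds each heart muscle cell and underlies each capillary, and each is built from one alpha, one beta and one gamma chain. Integrins are cell surface receptors built from one alpha and one beta subunit, and they tie matrix proteins outside the cell to talin, kindlin and the actin cytoskeleton inside it. The alpha subunit largely sets which ligand is bound. In heart muscle, laminin with the alpha2 chain and the alpha7 beta1 integrin are well known parts of the attachment of the cell to its basement membrane.

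The control group was adult Myh6-MCM mice given tamoxifen, and the YAP5SA group was adult Yap5SA+/tg; Myh6-MCM mice given tamoxifen, with 2 nuclear RNA libraries each. Both groups therefore carried Myh6-MCM, a tamoxifen-inducible Cre under the Myh6 promoter, which is active in heart muscle cells, and both received the drug. Nuclei were captured through PCM1, a protein of the centriolar satellites that marks cardiomyocyte nuclei, so the RNA was nuclear and not that of whole cells. Total counts ran from 7850661 to 15012122 per library. Pairs of values below give replicate 1 and then replicate 2 of a group, controls first. The 8 cardiomyocyte markers examined summed to between 22768 and 65471 CPM (counts divided by TMM-scaled library totals) and were present in every library. Most of each sum was Ttn. Markers of other cells were present too, and they are given below beside the members they moved with. The 2 control libraries differed from each other more than the 2 YAP5SA libraries did (chi-square per gene 61.9 and 15.2).

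The promoters of the 3 members that passed the test, and of Itgb1, the integrin subunit with the highest level per kilobase, are shown because the main values below belong to these genes. The sequences are those RefSeq gives before its start site on GRCm38.p6, cut where they entered the GENCODE M21 gene. Itga3 is read from the minus strand at chr11:95076802-95076964, Itga4 from the plus strand at chr2:79255176-79255425, Itga11 from the plus strand at chr9:62677605-62677825 and Itgb1 from the plus strand at chr8:128685404-128685653. Capitals mark GGAATG, a core of the site bound by TEAD, the DNA-binding partner of YAP.
Itga3: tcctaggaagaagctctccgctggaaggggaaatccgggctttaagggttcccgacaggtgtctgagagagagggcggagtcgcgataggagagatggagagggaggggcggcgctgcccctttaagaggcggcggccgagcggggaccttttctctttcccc
Itga4: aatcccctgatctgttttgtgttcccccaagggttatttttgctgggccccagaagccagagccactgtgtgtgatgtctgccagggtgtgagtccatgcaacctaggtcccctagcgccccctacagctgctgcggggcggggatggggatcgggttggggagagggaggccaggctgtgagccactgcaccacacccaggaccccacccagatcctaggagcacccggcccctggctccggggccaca
Itga11: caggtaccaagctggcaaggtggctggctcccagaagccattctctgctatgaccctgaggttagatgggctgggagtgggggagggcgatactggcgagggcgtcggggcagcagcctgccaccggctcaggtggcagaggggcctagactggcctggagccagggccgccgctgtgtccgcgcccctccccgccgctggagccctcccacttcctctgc
Itgb1: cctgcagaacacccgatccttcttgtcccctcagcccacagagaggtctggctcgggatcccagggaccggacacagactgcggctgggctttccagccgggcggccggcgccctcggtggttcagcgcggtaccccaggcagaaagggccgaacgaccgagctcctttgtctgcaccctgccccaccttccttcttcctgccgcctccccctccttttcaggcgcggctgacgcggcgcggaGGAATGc
Among the sequences printed, only that of Itgb1 held GGAATG, and none held TGAGTCA, the site of AP-1. Both motifs were searched on both strands, and they do not overlap each other. Over the RefSeq windows of 250 bases before and 50 after each start, 23 member genes matched in 26 windows. GGAATG was in 3 of the 26 windows (11.5%), those of Itga10, Itgb1 and Lamb3, against 14.7% of all 32851 windows. TGAGTCA was in 2 of the 26 (7.69%), those of Itga9 and Itgax, against 5.2% of all windows. Such a match is a description of letters and does not show a bound site.

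Of the 36 tested members, 2 were higher in the YAP5SA libraries, Itga3 and Itga4, and 1 was lower, Itga11 (edgeR quasi-likelihood test, Benjamini-Hochberg adjusted over all 17715 genes tested). The corresponding shares of all genes tested were 3.12% higher and 0.999% lower. The median log2 fold change, YAP5SA over control, was 0.10 over the 36 members and -0.06 over all genes tested. In 16 members both YAP5SA libraries lay above both control libraries, and in 11 both lay below, while 28.1% and 28.3% of all genes tested did so. Among the 10 tested laminin chains, none passed the test by edgeR or DESeq2. At an unadjusted p below 0.05 in edgeR 1 chain was higher and 2 were lower, against 2256 and 1934 of all 17715 genes tested. By DESeq2, which gave an adjusted p to all 36, 6 members were higher (Itga3, Itga4, Itga7, Itgam, Itgb2 and Itgb6) and 1 was lower (Itga11), against 5.49% and 2.73% of the 19294 genes it tested. In bulk RNA a change in the number of nuclei of a cell type and a change in RNA per nucleus cannot be told apart.

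**Figure D1:**
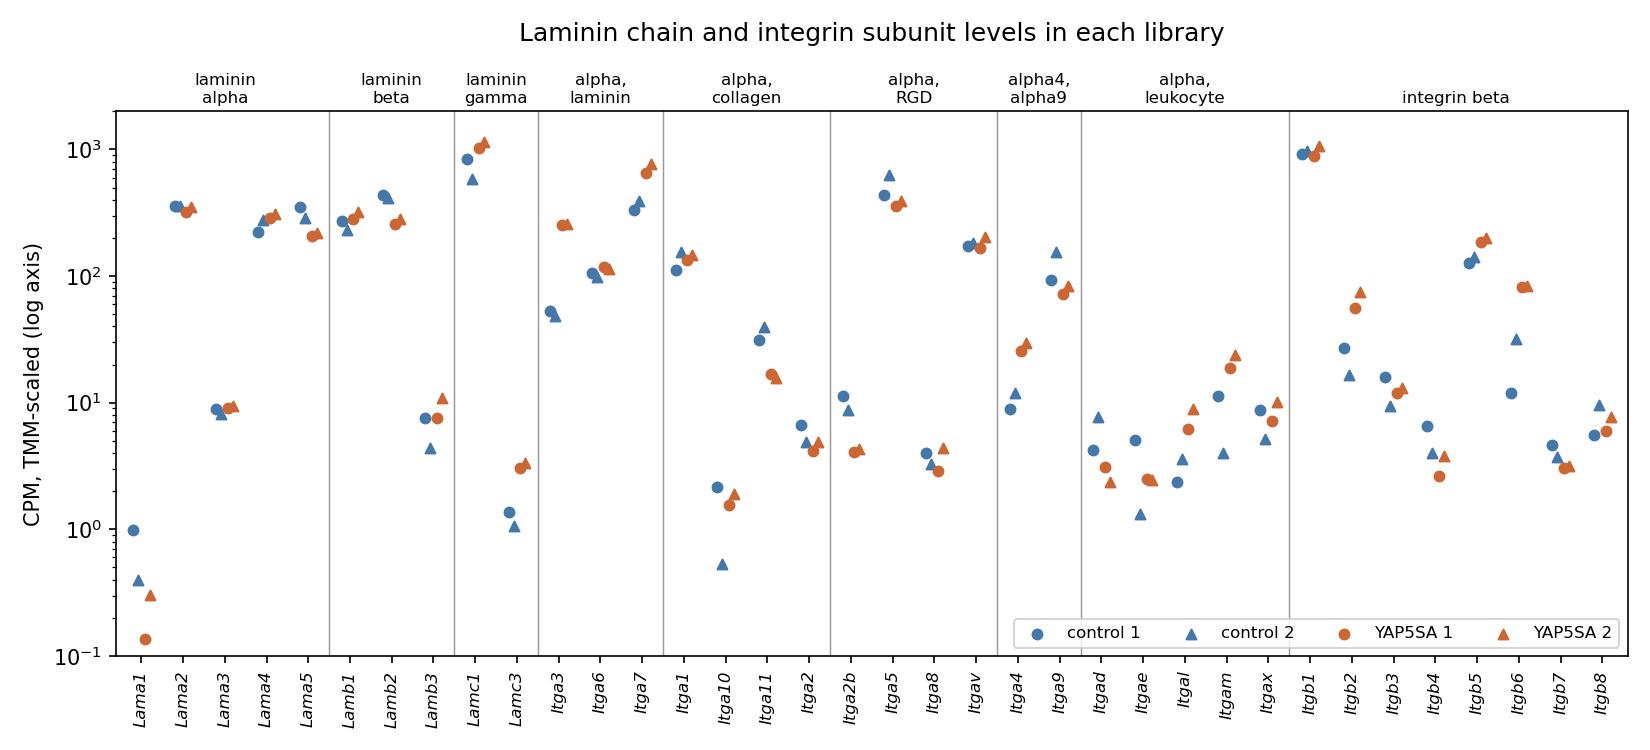
Level of 36 of the 37 member genes in each library, in CPM with TMM-scaled totals on a log axis, grouped by role. Circles and triangles are replicates 1 and 2, blue is control and orange is YAP5SA; levels of different genes are not scaled for length here. The Itga3 points are near 50 CPM in both control libraries and near 255 CPM in both YAP5SA libraries, and the Itgb1 points overlap.

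**Figure D2:**
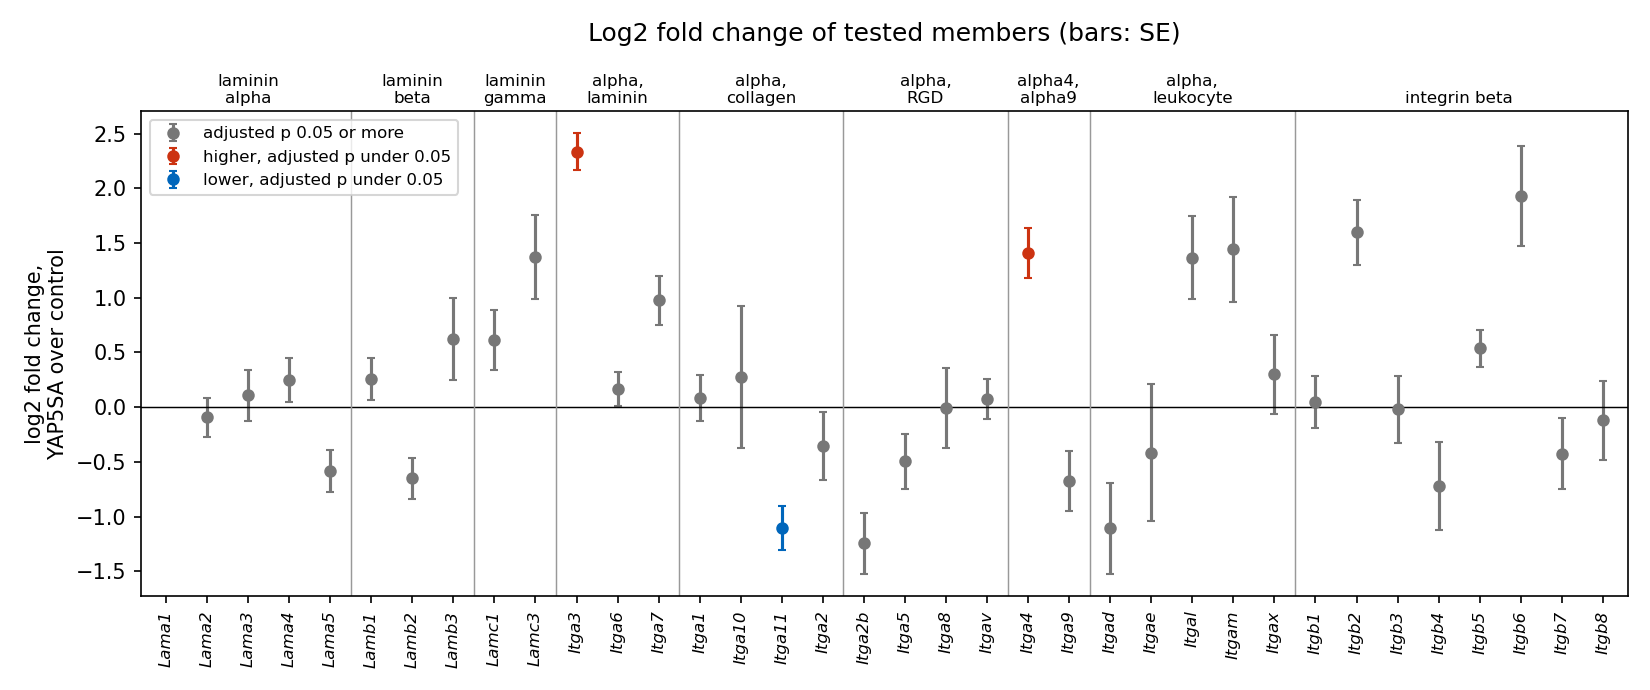
Log2 fold change of tested members, YAP5SA over control, with bars of 1 standard error, grouped by role. Red and blue points passed an adjusted p of 0.05: Itga3 at 2.33 and Itga4 at 1.41 above 0, and Itga11 at -1.11 below it.

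Lama5 and Lama4 had the highest levels per kilobase of exon, averaged over the 4 libraries, among the laminin alpha chains, which carry the domains that integrins and dystroglycan bind. Lama5 was at 348 and 289 CPM in controls against 206 and 219 CPM with YAP5SA. The YAP5SA pair lay 1.5-fold below the control pair, but the log2 fold change of -0.58 (SE 0.192) did not pass the test (adjusted p = 0.151). Lama4, the alpha chain known from vessels and from muscle, was at 222 and 277 CPM in controls against 286 and 307 CPM with YAP5SA. The groups did not overlap, and the log2 fold change was 0.25 (SE 0.199, adjusted p = 0.491). Per kilobase, Lama2, the chain of the muscle fibre basement membrane, was at 22 and 21.8 CPM per kb in controls against 19.7 and 21.3 CPM per kb with YAP5SA, so its level and those of Lama4 and Lama5 lay close together. Of the summed level of the alpha chains per kilobase, Lama5 made up 42.5% and 35.8% in controls against 29.0% and 28.8% with YAP5SA. With the longest transcript in place of the union of exons as length, Lama4 and Lama2 came first and second instead. Lama3, known from epithelia, stayed between 8.19 and 9.42 CPM, and Lama1, an embryonic and epithelial chain, was between 0.135 and 0.996 CPM.

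Lamb2 had the highest level per kilobase of the beta chains. It was at 437 and 412 CPM in controls against 257 and 284 CPM with YAP5SA. The YAP5SA pair lay lower, with a log2 fold change of -0.65 (SE 0.187), which did not pass the test (adjusted p = 0.120). Lamb1, the chain that takes the place of Lamb2 in many laminins, was at 272 and 231 CPM in controls against 282 and 320 CPM with YAP5SA, and the log2 fold change was 0.26 (SE 0.193, adjusted p = 0.462). Lamb1 made up 27.3% and 25.4% of the beta chain level per kilobase in controls against 39.6% and 40% with YAP5SA. These shares depended on the exon union as length. With the longest transcript, the control means were 43.5 CPM per kb for Lamb1 and 75.4 CPM per kb for Lamb2. The YAP5SA means were then 52 and 48.1 CPM per kb, so Lamb1 came before Lamb2 in that group. Lamb3, a partner of Lama3 in epithelial laminin, was between 4.36 and 10.9 CPM. Endothelial cells also make Lama4, Lama5, Lamb1, Lamb2 and Lamc1. Endothelial markers lay lower with YAP5SA, as Lama5 and Lamb2 did. Lama4, Lamb1 and Lamc1 lay the other way, with log2 fold changes of 0.25, 0.26 and 0.61 that did not pass the test. The 10 endothelial markers summed to 2029 and 1306 CPM in controls against 1009 and 933.5 CPM with YAP5SA. All 10 had a negative log2 fold change, 9 did not overlap between the groups, and 2 passed the test (Vwf and Robo4, both lower), with none at 0. Their part in the Lama5 and Lamb2 values was not tested. The 8 smooth muscle and pericyte markers summed to 1716 and 1535 CPM in controls against 1593 and 1738 CPM with YAP5SA. Without overlap between the groups, 4 of them lay lower (Rgs5, Cspg4, Kcnj8 and Abcc9) and 2 higher (Acta2 and Myh11). Only Acta2 passed the test (log2 fold change 2.67, edgeR adjusted p = 0.0284). The part of these cells in the laminin values was not tested either.

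Lamc1, the gamma chain of most laminins, had the highest level per kilobase of all laminin chains. It was at 833 and 585 CPM in controls against 1026 and 1142 CPM with YAP5SA. The groups did not overlap, with the 2 control libraries further apart than the 2 YAP5SA libraries, and the log2 fold change of 0.61 (SE 0.275) did not pass the test (adjusted p = 0.253). Lamc3 was at 1.36 and 1.06 CPM in controls against 3.03 and 3.34 CPM with YAP5SA. Its 15 and 8 counts against 45 and 44 counts gave a log2 fold change of 1.38 (SE 0.383), the highest among the tested laminin chains, and it did not pass the test (adjusted p = 0.113). Exons of Lama2, Lama3 and Lamc3 overlap genes on the other strand, and no source used here gives the strand setting of the counting.

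The integrin alpha subunits known as laminin receptors are Itga3, Itga6 and Itga7. All 3 lay higher in both YAP5SA libraries than in both control libraries, as did 28.1% of all genes tested. Only Itga3 of these passed the edgeR test, and Itga6 passed neither the edgeR nor the DESeq2 test. Itga3, a receptor for laminins with the alpha5 or alpha3 chain that is best known from epithelia, was at 52.5 and 48.5 CPM in controls against 253 and 257 CPM with YAP5SA. The YAP5SA libraries were about 5-fold above the control libraries, and each pair was close together. Itga3 (Ensembl ENSMUSG00000001507.16, chr11:95044474-95076801 on the minus strand) rose from 50.5 ± 2.84 CPM to 255 ± 3.08 CPM (SD, n = 2), with a log2 value of 2.33 for the fold change (SE 0.169, edgeR adjusted p = 0.0115). Without YAP5SA replicate 1 the log2 fold change was 2.35 and the adjusted p was 0.321, and without YAP5SA replicate 2 they were 2.32 and 0.0842. The call was therefore lost without either YAP5SA library, while the fold change hardly moved. Without control replicate 1 the log2 fold change was 2.39, and without control replicate 2 it was 2.29. Its promoter stretch printed above held neither motif searched.

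Itga7, the main laminin-binding alpha subunit of muscle, was at 330 and 390 CPM in controls against 654 and 763 CPM with YAP5SA. The YAP5SA libraries lay 1.97-fold above the control libraries with no overlap, but the log2 fold change of 0.98 (SE 0.222) missed the threshold (edgeR adjusted p = 0.0750, DESeq2 adjusted p = 0.00257). Exons of Itga7 overlap Mettl7b on the other strand, which had at most 0.906 CPM. Itga6, which binds most laminins, stayed between 99.0 and 117 CPM in the 4 libraries. Summed over the 3 subunits, the level per kilobase was 61.7 and 67.7 CPM per kb in controls against 138 and 152 CPM per kb with YAP5SA. Itga7 had the largest share of that sum in every library, 66.1% and 71.2% in controls against 58.6% and 62.1% with YAP5SA. Itga3 made up 14.9% and 12.6% in controls against 32.1% and 29.6% with YAP5SA, and it lay below Itga6 in both control libraries and above it in both YAP5SA libraries. The 8 cardiomyocyte markers all had a negative log2 fold change, with adjusted p-values from 0.0731 to 0.639. Of these, 7 lay lower with no overlap between the groups, as did 28.3% of all genes tested. The 8 markers summed to 32097 and 65471 CPM in controls against 22768 and 23947 CPM with YAP5SA. Most of each sum was Ttn alone, at 19901 and 48149 CPM in controls against 15501 and 16678 CPM with YAP5SA. Of the 5 epicardial and mesothelial markers, 4 did not overlap and were higher in the YAP5SA libraries, and Msln did not overlap and was lower (16.6 and 7.93 CPM in controls against 4.58 and 5.77 CPM with YAP5SA). Adjusted p-values of the 5 ran from 0.053 to 0.275. They summed to 56.2 and 40.3 CPM in controls against 76.5 and 86.5 CPM with YAP5SA, with none at 0, and their part in the Itga3 result was not tested.

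**Figure D3:**
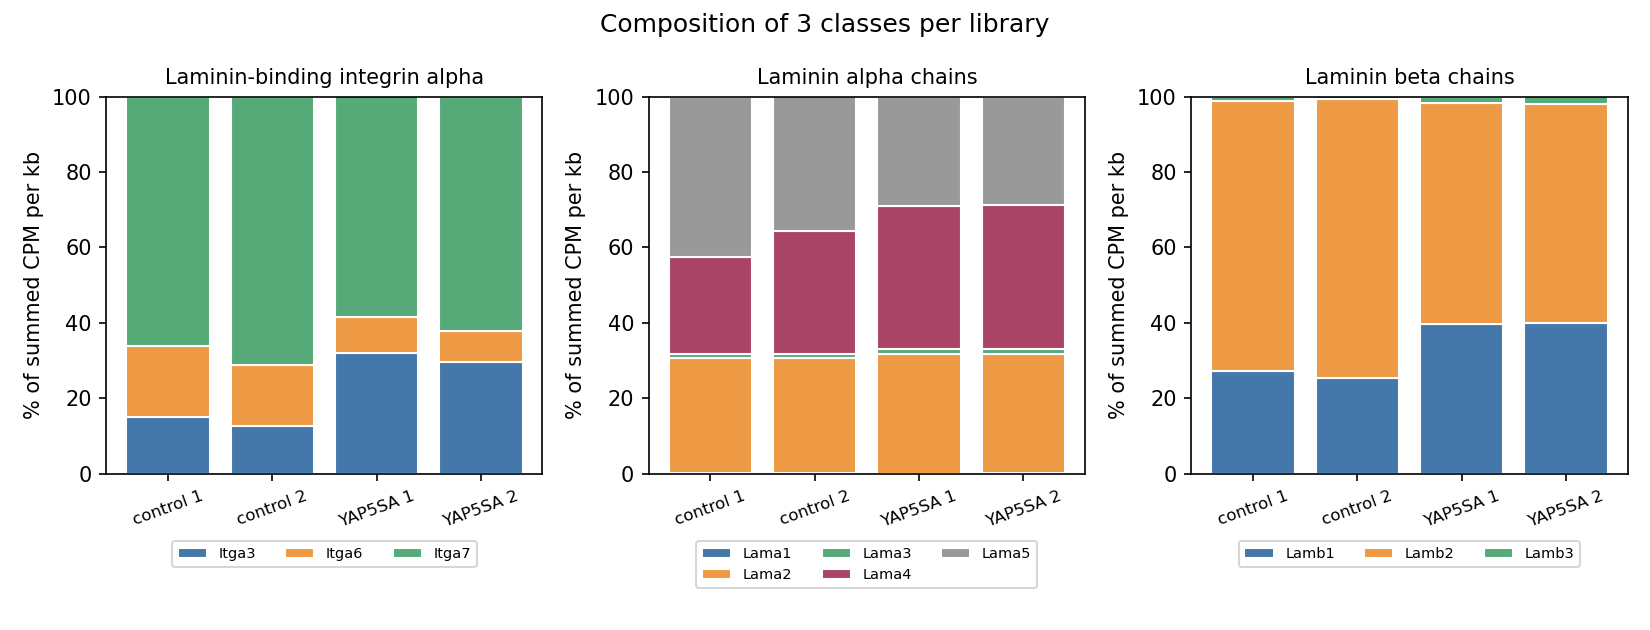
Share of each gene in the summed level per kilobase of exon (CPM per kb, in percent of the class) in each library, for laminin-binding integrin alpha subunits, laminin alpha chains and laminin beta chains. The Itga3 part is 14.9% and 12.6% in controls against 32.1% and 29.6% with YAP5SA, the Lama5 part is smaller in both YAP5SA libraries, and the Lamb1 part is larger in both.

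The collagen-binding alpha subunits are Itga1, Itga2, Itga10 and Itga11. Itga11, a receptor for fibrillar collagens known from fibroblasts, was at 31.2 and 39.5 CPM in controls against 17.0 and 15.8 CPM with YAP5SA. The groups were apart, with YAP5SA lower. Itga11 (Ensembl ENSMUSG00000032243.8, chr9:62677826-62783982 on the plus strand) fell from 35.3 ± 5.92 CPM to 16.4 ± 0.838 CPM (SD, n = 2), with a log2 value of -1.11 for the fold change (SE 0.199, edgeR adjusted p = 0.0492). The call was lost by limma-voom (adjusted p = 0.0506), with a stricter filter of a mean of 1 CPM (0.0504) and with a replicate block (0.0809). It was also lost without either YAP5SA library, and was kept by DESeq2 (0.0144). Without control replicate 1 the log2 fold change was -1.27, and without control replicate 2 it was -0.91. The 8 fibroblast markers summed to 6823 and 5498 CPM in controls against 5539 and 6835 CPM with YAP5SA. Of these, 4 had a positive and 4 a negative log2 fold change, 1 passed the test (Lum, higher), and none was at 0.

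Itga1, a receptor for collagen IV and other collagens, was at 112 and 154 CPM in controls against 135 and 146 CPM with YAP5SA. The groups overlapped, and the log2 fold change was 0.08 (SE 0.209, adjusted p = 0.848) and turned below 0 without control replicate 1. With the exon union as length, Itga1 was at 6.03 and 8.27 CPM per kb in controls and Itga11 at 6.07 and 7.70 CPM per kb. In the YAP5SA libraries Itga1 was at 7.26 and 7.87 CPM per kb and Itga11 at 3.31 and 3.08 CPM per kb. The near equal levels in controls depended on that length. With the longest transcript, the control means were 12.1 CPM per kb for Itga1 and 7.11 CPM per kb for Itga11. The YAP5SA means were then 12.8 and 3.3 CPM per kb. Itga2 and Itga10 were low, between 4.18 and 6.61 CPM and between 0.529 and 2.17 CPM.

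The alpha subunits that bind the RGD sequence of fibronectin, vitronectin or fibrinogen are Itga5, Itga8, Itgav and Itga2b. Itga5, the fibronectin receptor, was at 435 and 626 CPM in controls against 360 and 392 CPM with YAP5SA. Both YAP5SA libraries were lower, but the 2 control libraries differed by more than the gap between the groups, and the log2 fold change of -0.50 (SE 0.250) did not pass the test (adjusted p = 0.296). Itgav was at 172 and 182 CPM in controls against 168 and 205 CPM with YAP5SA, with overlapping groups, and its log2 fold change was 0.08 (SE 0.184, adjusted p = 0.836) and turned below 0 without YAP5SA replicate 2. Exons of Itgav, Itga8 and Itgb4 also overlap genes on the other strand. Itga2b, the fibrinogen receptor subunit of platelets, was at 11.2 and 8.72 CPM in controls against 4.11 and 4.33 CPM with YAP5SA. The groups did not overlap, and the log2 fold change of -1.24 (SE 0.280) missed the threshold (adjusted p = 0.0738). Of the other platelet markers, Pf4 was at 15.8 and 8.59 CPM and at 19.3 and 25.1 CPM, and Gp1ba was at 6.79 and 2.64 CPM and at 2.02 and 2.20 CPM. Itga2b is itself one of the 5 platelet markers, which summed to 35.4 and 22.6 CPM in controls against 26.4 and 33.1 CPM with YAP5SA, and Gp9 was at or below 0.529 CPM. Itga8, known from smooth muscle and kidney, was between 2.90 and 4.4 CPM.

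Itga4 and Itga9 form a class of their own, and Itga4 pairs with beta1 or beta7 to bind VCAM1 and fibronectin. Itga4 was at 8.97 and 11.9 CPM in controls against 25.7 and 29.6 CPM with YAP5SA. The YAP5SA pair lay above the control pair by more than the spread of either pair. Itga4 (Ensembl ENSMUSG00000027009.18, chr2:79255426-79333123 on the plus strand) rose from 10.4 ± 2.07 CPM to 27.7 ± 2.74 CPM (SD, n = 2), with a log2 value of 1.41 for the fold change (SE 0.228, edgeR adjusted p = 0.0409). The call was lost with a replicate block (adjusted p = 0.0519) and without either YAP5SA library. Without control replicate 1 the log2 fold change was 1.22, and without control replicate 2 it was 1.64. Exons of Itga4 overlap Cerkl on the other strand, and Cerkl had at most 0.453 CPM. Itga9, a tenascin and VCAM1 receptor, was at 93.6 and 156 CPM in controls against 72.7 and 83.5 CPM with YAP5SA, and the log2 fold change of -0.67 (SE 0.276) did not pass the test (adjusted p = 0.219). Itga4 made up 5.01% and 4.03% of the level per kilobase of the pair in controls against 16.3% in both YAP5SA libraries.

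The leukocyte alpha subunits Itgad, Itgae, Itgal, Itgam and Itgax, and Itgb2, the beta partner of all of them but Itgae, were all at or below 75.5 CPM. None passed the edgeR test, with Itgb2, Itgam and Itgal higher and Itgad lower at an unadjusted p below 0.05, while Itgb2 and Itgam passed by DESeq2. Over all 17715 genes tested, 2256 were higher and 1934 lower at that unadjusted p. Itgb2, the CD18 subunit, was at 26.8 and 16.5 CPM in controls against 56.3 and 75.5 CPM with YAP5SA. The groups did not overlap, and the log2 fold change of 1.60 (SE 0.294) just missed the threshold (edgeR adjusted p = 0.0508, DESeq2 adjusted p = 0.000178). Itgam, the CD11b subunit of macrophages and neutrophils, was at 11.3 and 3.97 CPM in controls against 18.7 and 23.7 CPM with YAP5SA, and the log2 fold change was 1.44 (SE 0.479, adjusted p = 0.154). Its control libraries were far apart, and the log2 fold change was 2.41 without control replicate 1 and 0.91 without control replicate 2. Itgal, the CD11a subunit, was at 2.35 and 3.57 CPM in controls against 6.20 and 8.96 CPM with YAP5SA, and the log2 fold change was 1.37 (SE 0.376, adjusted p = 0.110). Itgad lay the other way, at 4.26 and 7.67 CPM in controls against 3.10 and 2.35 CPM with YAP5SA, and the log2 fold change was -1.11 (SE 0.414, adjusted p = 0.189). Itgax was at 8.78 and 5.15 CPM in controls against 7.14 and 10.2 CPM with YAP5SA, and its groups overlapped (log2 fold change 0.30, SE 0.365, adjusted p = 0.662). Itgae, which pairs with beta7, was between 1.32 and 5.07 CPM. Itgad, Itgam and Itgax are neighbouring related genes on chromosome 7, and Itgam and Itgad also overlap exons of other genes, so their counts are uncertain.

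Markers of macrophages and monocytes moved with Itgb2, Itgam, Itgal and Itga4. All 10 were higher in both YAP5SA libraries than in both control libraries, and 5 passed the test (Adgre1, Cd14, Fcgr1, C1qa and C1qb). They summed to 772.6 and 564.3 CPM in controls against 1347 and 1624 CPM with YAP5SA, and none was at 0. Of the 6 lymphocyte markers only Cd79a was tested, and the 6 summed to between 1.44 and 8.79 CPM. The 4 neutrophil markers summed to between 4.63 and 7.25 CPM. The part of these cells in the values of Itgb2, Itgam, Itgal and Itga4 was not tested.

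The remaining beta subunits were led by Itgb1, the partner of all 3 laminin-binding and all 4 collagen-binding alpha subunits. Itgb1 was at 915 and 974 CPM in controls against 885 and 1067 CPM with YAP5SA. The groups overlapped, with means of 945 ± 41.8 and 976 ± 128 CPM (SD, n = 2), and the log2 fold change was 0.05 (SE 0.241, edgeR adjusted p = 0.928) and turned below 0 without YAP5SA replicate 2. Itgb1 made up 81.3% and 81.5% of the beta subunit level per kilobase in controls against 71.4% and 72.8% with YAP5SA. The second was Itgb5, a vitronectin receptor subunit, at 126 and 141 CPM in controls against 187 and 201 CPM with YAP5SA. Its groups did not overlap, and the log2 fold change of 0.54 (SE 0.169) did not pass the test (adjusted p = 0.139).

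Itgb6, which with alphav binds latent TGF-beta and is best known from epithelia, was at 12 and 32.1 CPM in controls against 82.4 and 84.2 CPM with YAP5SA. Both YAP5SA libraries were far above both control libraries, which themselves differed by more than 2-fold. The log2 fold change was 1.93 (SE 0.455) and missed the threshold by edgeR (adjusted p = 0.0806), while with a replicate block the adjusted p was 0.0477 and by DESeq2 it was 0.000498. The fold change rested in part on 1 control library, with a log2 value of 1.38 without control replicate 1 and 2.81 without control replicate 2. The 4 other beta subunits were low: Itgb3 was between 9.38 and 15.9 CPM, Itgb4 between 2.63 and 6.52 CPM, Itgb7 between 3.03 and 4.62 CPM and Itgb8 between 5.52 and 9.52 CPM. Of all 38 rows, 14 are given only by such a range, a count or a level per kilobase, and the 12 tested among these had log2 fold changes from -0.72 to 0.62 and adjusted p-values from 0.333 to 0.995.

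**Figure D4:**
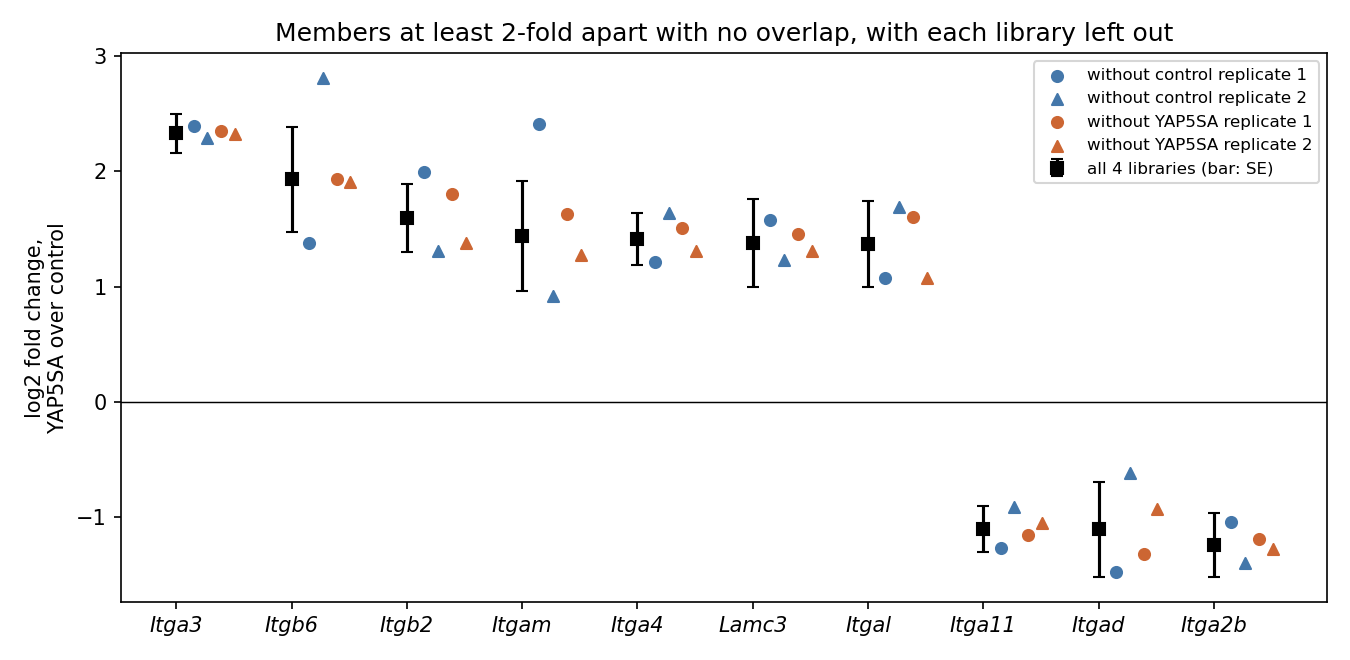
Log2 fold change, YAP5SA over control, of the 10 members that differed at least 2-fold with no overlap between the groups, from all 4 libraries (squares, bars of 1 standard error) and with each library left out (coloured points). Itga3 stays between 2.29 and 2.39, while Itgam runs from 0.91 to 2.41 and Itgb6 from 1.38 to 2.81 with the control library left out.

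The other genes of these pathways were taken from 3 lists. Of 20 tested basement membrane partners of laminin, 3 were higher in the YAP5SA libraries and 0 lower, and their median log2 fold change was 0.56 beside -0.06 for all genes tested. At an unadjusted p below 0.05, 9 of the 20 were higher and 1 was lower, and by DESeq2 6 were higher and 1 was lower. For all 3 lists, the shares of all genes tested were 3.12% higher and 0.999% lower by edgeR. By DESeq2 they were 5.49% and 2.73%. At an unadjusted p below 0.05, 2256 of all 17715 genes tested were higher and 1934 lower. Col4a3, a collagen IV chain of specialised basement membranes, was at 5.43 and 8.19 CPM in controls against 216 and 227 CPM with YAP5SA (log2 fold change 5.03, SE 0.264, edgeR adjusted p = 0.00638). Col4a4, its partner chain, was at 22.8 and 18.5 CPM in controls against 315 and 279 CPM with YAP5SA (log2 fold change 3.84, SE 0.211, edgeR adjusted p = 0.00738). Bcam, a cell surface receptor for laminin alpha5, was at 132 and 146 CPM and at 317 and 380 CPM (log2 fold change 1.32, SE 0.194, edgeR adjusted p = 0.0356). The widespread collagen IV chains Col4a1 and Col4a2 had log2 fold changes of -0.25 and -0.07 with adjusted p-values of 0.717 and 0.927.

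Of 25 tested non-laminin ligands of integrins, 3 were higher and 0 lower, and the median log2 fold change was 0.28. At an unadjusted p below 0.05, 7 were higher and 2 lower, and by DESeq2 6 were higher and 0 lower. Vcam1, the ligand of the alpha4 integrins, was at 48.4 and 59.2 CPM in controls against 292 and 345 CPM with YAP5SA (log2 fold change 2.57, SE 0.209, edgeR adjusted p = 0.0157). Thbs1, a matrix glycoprotein, was at 282 and 443 CPM and at 3014 and 2853 CPM (log2 fold change 3.02, SE 0.352, edgeR adjusted p = 0.0284). Icam1, a ligand of the beta2 integrins, was at 21.7 and 24.8 CPM and at 44.3 and 46.7 CPM (log2 fold change 0.97, SE 0.172, edgeR adjusted p = 0.0480). In each of these 3 genes the libraries of the 2 groups were well apart.

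Of 33 tested cytoplasmic linkers and signalling proteins of integrins, 3 were higher and 0 lower, and the median log2 fold change was 0.32. At an unadjusted p below 0.05, 12 were higher and 1 lower, and by DESeq2 7 were higher and 1 lower. Ptk2b, the focal adhesion kinase relative PYK2, was at 13.9 and 13.0 CPM in controls against 50.7 and 51.6 CPM with YAP5SA (log2 fold change 1.93, SE 0.169, edgeR adjusted p = 0.0176). Tns3, a tensin of cell-matrix adhesions, was at 146 and 134 CPM and at 346 and 349 CPM (log2 fold change 1.31, SE 0.174, edgeR adjusted p = 0.0316). Fermt3, the kindlin of blood cells, was at 15.3 and 10.6 CPM and at 38.5 and 40.9 CPM (log2 fold change 1.61, SE 0.232, edgeR adjusted p = 0.0354), and the macrophage markers given above moved with it. The talins and the kindlin Fermt2 did not pass the test, with Tln1 at a log2 fold change of 0.54 (adjusted p = 0.220), Tln2 at 1.34 (adjusted p = 0.143) and Fermt2 at 0.73 (adjusted p = 0.141). Exons of Col4a3, Bcam, Thbs1, Vcam1, Icam1, Fermt3 and Tln1 overlap genes on the other strand. Those of Col4a1 and Col4a2 do so too, and overlap each other. With either YAP5SA library left out, at most 2 genes of each list passed the threshold.

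**Figure D5:**
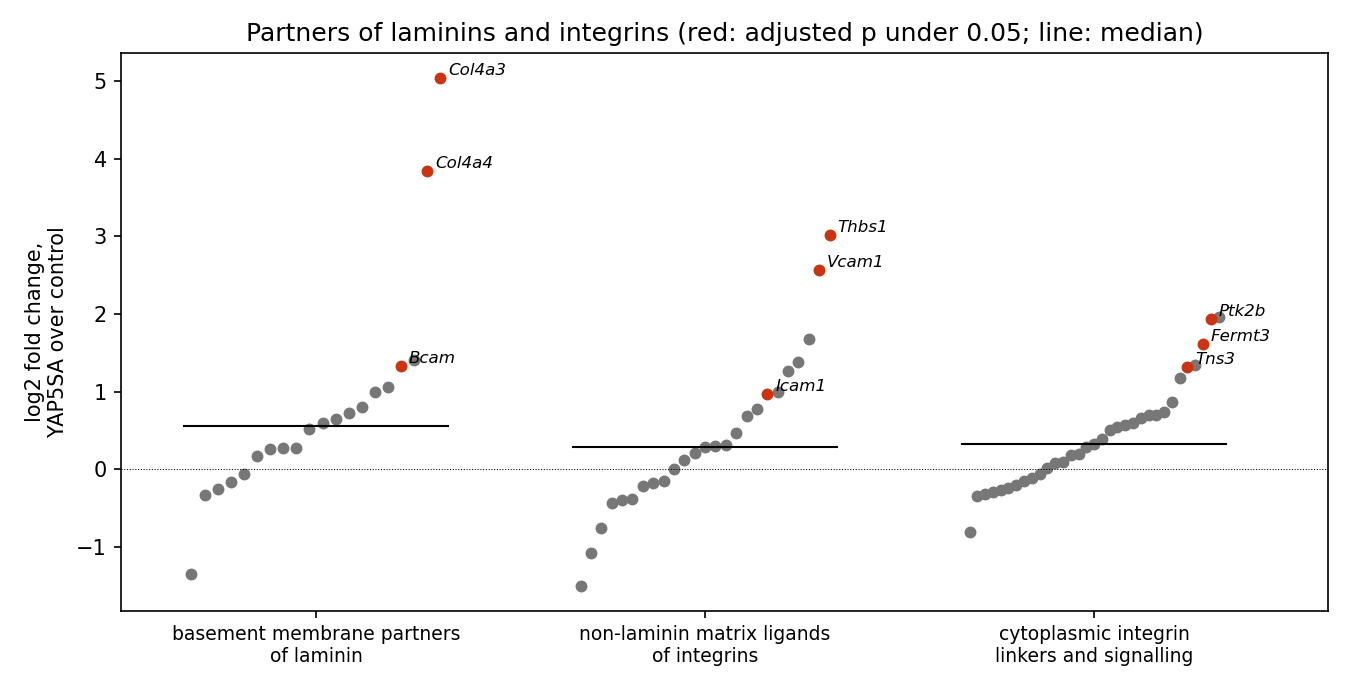
Log2 fold change, YAP5SA over control, of each tested gene of 3 lists, sorted within the list, with the list's median as a line. Red points passed an adjusted p of 0.05 and are named; Col4a3 at 5.03 and Col4a4 at 3.84 are the 2 highest.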

How the data were processed

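The authors deposited raw counts per gene symbol for the 4 nuclear RNA libraries, in whole numbers and not normalized. Per the labels' protocols, RNA of PCM1-selected nuclei was made into stranded, ribosomal-RNA-depleted paired-end libraries, and reads were mapped to mm10 with STAR. The submitters' processing notes name DESeq2. No source used here gives tool versions, the counting program, its strand setting, its annotation or its treatment of reads in introns. Groups were taken from the labels, which do not say that replicates were separate animals, so p-values measure only how far these libraries spread, and that spread can be technical. The ATAC-seq and 4C-seq samples were not analysed here.

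Genes were filtered with filterByExpr (minimum count 10) and scaled by TMM in edgeR 4.0.16 (R 4.3.3). The quasi-likelihood test compared the groups without a block, and Benjamini-Hochberg adjustment ran over all 17715 genes tested, with a threshold of 0.05. An adjusted p is from edgeR where no tool is given. Levels are CPM, compared between genes only per kilobase of exon union (GENCODE M21). Whether reads in introns changed these comparisons was not tested. Alternatives were DESeq2 1.42.0, limma-voom (limma 3.58.1), 2 other scalings, 2 other filters, a replicate block, each library left out and the longest transcript as length. The scripts were tested on simulated counts.

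A value per library is given for members past the threshold, for members with no overlap and a log2 fold change of at least 1 in size, and for the 2 with the highest level per kilobase in each role class. A member that this rule names is not reported here. Other members are given by range, and from the 3 pathway lists the genes past the threshold. Col4a1, Col4a2, Tln1, Tln2, Fermt2 and Lama2 were named after their values were seen. Members, lists and the promoters shown were chosen with earlier results of these data known. Where no read was counted, up to 3 counts are possible (0.202 to 0.397 CPM), and such limits cover counting error only.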

Additional observations from a re-analysis of the deposited data

How the results depend on the processing

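With 2 libraries a group, the number of calls depended on the processing more than the fold changes did. The members called higher numbered 2, but 6 by DESeq2, 8 with no filter on low counts and 0 to 13 with 1 library left out. The members called lower numbered 1, but 0 by limma-voom, 2 with no filter, 0 with the stricter filter, 0 with a replicate block and 0 to 7 with 1 library left out. In both directions the count was 0 without either YAP5SA library and highest without control replicate 1, and without control replicate 2 it was 10 higher and 6 lower. For basement membrane partners, integrin ligands and cytoplasmic linkers, the 3 called higher in each list became 6, 6 and 7 by DESeq2 and 8, 9 and 10 with no filter. With 1 library left out they ran from 0 to 12, 0 to 12 and 0 to 16. The 0 called lower in each became 1 by DESeq2 and 1 with no filter for basement membrane partners and likewise 1 and 1 for linkers. With 1 library left out the lower calls ran from 0 to 4, 0 to 6 and 0 to 5. The cause was not tested.

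No label ties libraries of equal replicate number, and the deviations of the same-numbered libraries had a Pearson r of -0.0917 across genes. With 2 libraries a group, that value cannot decide whether the libraries were paired. With the replicate block 2 members were again higher, Itga3 and Itgb6, in place of Itga3 and Itga4. Of the log2 fold changes of the 24 members that the naming rule takes, 208 under an alternative had the same direction and side of the threshold, 42 passed it newly, 10 no longer passed it and 4 turned. With 1 library left out, Itga1 ran from -0.129 (without control replicate 1) to 0.341, Itgax from -0.013 (without control replicate 2) to 0.741, Itgav from -0.074 (without YAP5SA replicate 2) to 0.219, and Itgb1 from -0.094 (without YAP5SA replicate 2) to 0.180. The scalings moved the median of all genes by 0.0276 and 0.00419 on the log2 scale.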

Other observations

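Genes named after integrins that the choice of members left out were also measured. Itgbl1, a secreted protein with integrin beta-like repeats, was at 33.7 and 10.6 CPM in controls against 4.85 and 6 CPM with YAP5SA. Both YAP5SA libraries were lower, and the log2 fold change of -2.04 (SE 0.560) did not pass the edgeR test (adjusted p = 0.110). Itgb1bp1, which binds the tail of the beta1 subunit, was at 16.6 and 22.7 CPM in controls against 22.6 and 22.3 CPM with YAP5SA, with overlapping groups. Itgb1bp2, the muscle protein melusin, was at 31.7 and 63.0 CPM in controls against 39.1 CPM in both YAP5SA libraries. Its control libraries lay on either side of the YAP5SA libraries. Itgb2l was at or below 0.362 CPM in every library.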
